A study of Mus musculus with 32 samples.

Results

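The immunity-related GTPases (IRG proteins) Igtp, Irgm1, Irgm2 and Iigp1 and the guanylate-binding proteins Gbp2 and Gbp3 were followed in bone marrow macrophages (BMM) of 2 mouse strains before and after cholesterol loading. The 6 genes were chosen by symbol, and every probe that the platform annotation pairs with them was taken. On the array of experiment 1 they had 7 probes for 5 genes, of 24613 probes and 15967 genes in all, since no probe of that table was named for Gbp2. On the array of experiment 2 they had 12 probes for all 6 genes, of 25697 probes and 16593 genes in all. A probe entered the tests if its mean in at least 1 of the 4 groups was above the table's median, a log2 intensity of 5.98 in experiment 1 and 4.29 in experiment 2. That left 5 member probes of 4 genes in experiment 1 and 8 member probes of 5 genes in experiment 2. Both Iigp1 probes fell below the filter in each experiment, and so did 2 of the 3 Gbp2 probes in experiment 2. In build GRCm38.p6, Igtp lies at chr11:58199556-58207592, Irgm2 at chr11:58214977-58222783, Irgm1 at chr11:48865245-48871420, Gbp2 at chr3:142620663-142638008 and Gbp3 at chr3:142560016-142573213.

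All cells came from ApoE-/- mice of the AKR or DBA/2 background, aged 16 weeks, and were grown from bone marrow in L-cell conditioned medium, a source of macrophage colony-stimulating factor. Lack of ApoE, the apolipoprotein that carries cholesterol out of macrophages, was thus shared by every group. Each experiment had 4 groups of 4 arrays: DBA/2 loaded, DBA/2 unloaded, AKR loaded and AKR unloaded. Loading was a 24 h incubation with acetylated LDL (AcLDL), a modified lipoprotein that macrophages take up through scavenger receptors, at 100 µg/ml in experiment 1 (female labels) and 50 µg/ml in experiment 2 (male labels). Dose, AcLDL batch, sex, array version and year changed together between the experiments and cannot be told apart. Values were therefore never pooled or tested across them. The paper attributes its use of different doses to unequal loading efficiency of separate AcLDL preparations. The dishes of a group were not said to come from separate mice, and each p-value here sets a difference against culture-to-culture spread, which may be technical.

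IRG and GBP proteins are large GTPases that cells make in response to interferons and that gather on the vacuoles of intracellular bacteria and protozoa. Iigp1 (Irga6) and the GBP proteins are effectors that load onto and disrupt the vacuole membrane. Igtp (Irgm3), Irgm1 and Irgm2 carry an altered GTP-binding motif and act as regulators that sit on the cell's own membranes and keep the effectors away from them. Transcription of the family is switched on by gamma and type I interferons, which act through promoter elements known as GAS (gamma-activated site) and ISRE (interferon-stimulated response element).

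The promoters are shown because an ISRE core can be read in each of them and a GAS core in those of Igtp and Irgm2. Whether these elements bear on the members' levels was not tested. RefSeq promoters of build GRCm38.p6 (strain C57BL/6J, not AKR or DBA/2) matched 5 of the 6 members, and the 100 bases before the transcription start are printed 5′ to 3′ with matches in capitals. The ISRE core was searched on both strands as GAAA, any 2 bases (NN) and GAAA, which reads TTTC, NN and TTTC on the other strand. The GAS core was searched as TTCNNNGAA, which is its own reverse complement. The capitals of Igtp and Irgm2 hold first a GAS core and then an ISRE core, and those of Irgm1 and Gbp3 are 2 overlapping ISRE cores.
Igtp, chr11:58199456-58199555, plus strand: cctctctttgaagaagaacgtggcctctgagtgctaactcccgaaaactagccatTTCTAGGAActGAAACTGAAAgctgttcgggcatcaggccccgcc
Irgm2, chr11:58214877-58214976, plus strand: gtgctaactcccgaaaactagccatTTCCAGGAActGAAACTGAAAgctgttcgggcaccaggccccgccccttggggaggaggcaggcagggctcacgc
Irgm1, chr11:48871421-48871520, minus strand: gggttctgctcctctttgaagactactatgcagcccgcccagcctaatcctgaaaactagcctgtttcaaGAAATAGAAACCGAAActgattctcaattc
Gbp2, chr3:142620563-142620662, plus strand: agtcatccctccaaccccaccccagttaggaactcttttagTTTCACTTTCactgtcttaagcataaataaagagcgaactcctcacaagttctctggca
Gbp3, chr3:142559944-142560043, plus strand: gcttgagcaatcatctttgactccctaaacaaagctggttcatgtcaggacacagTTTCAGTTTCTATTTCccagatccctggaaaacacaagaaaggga

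Each of the 5 genes thus had an ISRE core within 64 bases of a start, a motif found in 3.44% of all 32851 promoters of 300 bases. The GAS core was found at Igtp and Irgm2, and in 8.3% of all promoters. Both cores together were found in 0.454% of them. Igtp and Irgm2, which are neighbours on chromosome 11, shared an identical stretch of 61 bases within the 300 searched. It begins 11 bases before the Igtp start and 41 bases before the Irgm2 start, after the cores. The stretch runs past both starts to the edge of the Igtp window, so its full length was not read. A second annotated start of Gbp3 had neither core in its 300 bases. Of the other IRG and GBP genes chosen for comparison, 7 of the 10 with a promoter held the ISRE core (9930111J21Rik1, Gbp2b, Gbp5, Gbp7, Gm12250, Tgtp1 and Tgtp2). So did 3 of 15 genes of interferon receptors and JAK-STAT signalling and 2 of 10 gamma interferon targets of other kinds. Among the 10 genes most like the members over the arrays, named below, 2 of the 9 with a promoter held it (Ddx58 and Gbp7). A match describes the letters of the reference strain only, and no binding was measured.

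Within each experiment all arrays had the same distribution of values after quantile normalization. All 16 arrays of experiment 1 and 14 of 16 in experiment 2 correlated best with their own group (mean r of 0.994 to 0.996 and of 0.982 to 0.992). In experiment 2 the array labelled AKR unloaded replicate 1 correlated better with the AKR loaded arrays (r = 0.986) than with its own group (r = 0.966). The array labelled AKR loaded replicate 2 correlated better with the AKR unloaded arrays (r = 0.985) than with its own group (r = 0.968). Results of experiment 2 are therefore given by the labels and, as an alternative added after these correlations were seen, without those 2 arrays. Of 8 macrophage markers listed, 6 had a probe named for them on each array, and all 6 passed the filter in both experiments. No probe was named for Cd68 or Csf1r in the annotation used. The paper lists Cd68 among the lysosome pathway transcripts that loading changed, with positive fold changes in both experiments. None of the 9 T and NK cell markers on the array of experiment 2 passed the filter, and 2 of 8 did in experiment 1.

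Marker lists also moved on loading. Over all genes of experiment 1 the calls were 6.4% lower and 6.42% higher in loaded DBA/2 BMM. They were 15.1% lower and 16.2% higher in loaded AKR BMM. In experiment 2 without the 2 arrays they were 8.64% and 10.3% in DBA/2 BMM, and 9.63% and 10.1% in AKR BMM. The summed linear intensity of the macrophage markers was 39063 to 40237 in loaded and 39435 to 41863 in unloaded DBA/2 BMM of experiment 1, with 2 of the 6 genes called higher and none lower. In AKR BMM it was 30944 to 32415 in loaded and 39782 to 42803 in unloaded arrays, with 4 called lower, led by Adgre1 (-1.25 ± 0.10), and Mertk called higher (0.55 ± 0.08). In experiment 2 the sum was 33417 to 36513 in loaded and 39472 to 41575 in unloaded DBA/2 BMM, with 3 called lower and Mertk higher (0.86 ± 0.13) without the 2 AKR arrays. Over all AKR arrays of experiment 2 it was 25835 to 32112 in loaded and 27511 to 33337 in unloaded BMM, and without the 2 arrays 4 were called lower, led by Fcgr1 (-2.10 ± 0.09) and Adgre1 (-1.73 ± 0.15). Calls of lower macrophage markers thus accompanied those of the members in AKR BMM of both experiments and in DBA/2 BMM of experiment 2. They did not in DBA/2 BMM of experiment 1. For experiment 2 this holds only without the 2 arrays. By the labels no macrophage marker was called lower there in either strain, with Fcgr1 at -1.72 ± 0.43 in DBA/2 BMM (limma, adjusted p = 0.0117). Fcgr1 is also on the list of gamma interferon targets given below.

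Of the 3 B cell markers on each array, 2 passed the filter in experiment 1 and 1 in experiment 2. Their summed linear intensity in experiment 1 was 235 to 273 in loaded and 282 to 293 in unloaded DBA/2 BMM, and 223 to 242 in loaded and 265 to 310 in unloaded AKR BMM. In experiment 2 it was 74.7 to 91.4 in loaded and 101 to 144 in unloaded DBA/2 BMM, and 52.2 to 74.6 in loaded and 53.5 to 66.8 in unloaded AKR BMM. Cd79b, a subunit of the B cell receptor, carried this shift, while Cd79a, the other subunit, stayed below the filter in both experiments. Cd79b was called lower in loaded DBA/2 BMM of experiment 1 (-0.38 ± 0.08) and of experiment 2 (-0.89 ± 0.19 by the labels), and in loaded AKR BMM of experiment 1 (-0.69 ± 0.08). In AKR BMM of experiment 2 without the 2 arrays it was not called (-0.15 ± 0.17). By the labels it was called higher in unloaded DBA/2 than in unloaded AKR BMM of experiment 2 (1.74 ± 0.19).

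Of the 6 neutrophil and granule precursor markers on each array, 2 passed the filter. Their sum in experiment 1 was 1477 to 2096 in loaded and 695 to 746 in unloaded DBA/2 BMM, and 866 to 928 in loaded and 769 to 923 in unloaded AKR BMM. S100a8 was called higher in loaded DBA/2 BMM of experiment 1 (2.14 ± 0.11), and Camp was not called there (0.15 ± 0.13). In experiment 2 S100a8 was not called in DBA/2 BMM (0.06 ± 0.10) and was called lower in loaded AKR BMM (-0.63 ± 0.12), both without the 2 AKR arrays. Strain differences of markers went both ways. In loaded BMM S100a8 was called higher in DBA/2 in experiment 1 (1.53 ± 0.11). By the labels it was called lower there in experiment 2 (-1.38 ± 0.20). Mertk was called lower in unloaded DBA/2 BMM of experiment 1 (-0.95 ± 0.08) and, by the labels, of experiment 2 (-1.36 ± 0.18). Beyond these and Cd79b, strain differences of markers are not given here. The part of these marker shifts in the members' results was not tested.

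Cholesterol loading lowered the members in both strains of experiment 1. At a Benjamini-Hochberg adjusted p under 0.01 in limma, the threshold used throughout, all 4 genes that passed the filter were called lower in loaded DBA/2 BMM, where 6.4% of 9312 genes were called lower and 6.42% higher. All 4 were also called lower in loaded AKR BMM, where 15.1% of genes were called lower and 16.2% higher. Their median log2 difference was -0.72 in DBA/2 and -0.74 in AKR BMM, beside medians of all genes of 0.01 in each.

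Irgm2, a regulatory IRG protein that localises to the Golgi, changed the most in experiment 1. Its log2 intensities were 7.51, 7.54, 7.62 and 7.58 in loaded DBA/2 BMM, against 8.59, 8.66, 8.73 and 8.58 in unloaded DBA/2 BMM. They were 7.17, 7.32, 7.11 and 7.26 in loaded AKR BMM, against 8.34, 8.33, 8.24 and 8.38 in unloaded AKR BMM. Every loaded array lay below every unloaded array. How many of all genes part by loading in this way was not counted, for Irgm2 or for the genes below. The log2 difference was -1.08 ± 0.06 in DBA/2 (SE, 2.11-fold lower, adjusted p = 1.08e-11) and -1.11 ± 0.06 in AKR BMM (2.16-fold lower, adjusted p = 7.18e-13). From the lowest difference up, Irgm2 was number 23 of 9312 genes in DBA/2 and number 93 in AKR BMM.

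Igtp, which localises to the endoplasmic reticulum and lipid droplets, also fell in both strains. Its log2 intensities were 8.14, 8.28, 8.42 and 8.27 in loaded DBA/2 BMM, against 8.78, 8.75, 8.92 and 8.82 in unloaded DBA/2 BMM. They were 7.69, 7.71, 7.66 and 7.76 in loaded AKR BMM, against 8.50, 8.37, 8.56 and 8.41 in unloaded AKR BMM. Loaded and unloaded arrays did not overlap within a strain, and the 4 loaded AKR arrays were the lowest of all 16. The log2 difference was -0.54 ± 0.07 in DBA/2 (1.45-fold lower, adjusted p = 2.34e-06) and -0.75 ± 0.07 in AKR BMM (1.68-fold lower, adjusted p = 2.34e-09).

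Gbp3, a guanylate-binding effector, had log2 intensities of 6.73, 6.82, 6.83 and 6.65 in loaded DBA/2 BMM, against 7.73, 7.42, 7.67 and 7.56 in unloaded DBA/2 BMM. The AKR values were 6.44, 6.46, 6.58 and 6.50 in loaded BMM, against 7.38, 7.18, 7.24 and 7.10 in unloaded BMM. All loaded arrays again lay below all unloaded arrays. The log2 difference was -0.83 ± 0.08 in DBA/2 (1.78-fold lower, adjusted p = 1.46e-08) and -0.73 ± 0.08 in AKR BMM (1.66-fold lower, adjusted p = 2.4e-08).

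Irgm1, the regulator needed for defence against mycobacteria and for normal autophagy, had 2 probes in experiment 1. The brighter, ILMN_1234539, read 8.02, 8.08, 8.21 and 7.90 in loaded DBA/2 BMM, against 8.69, 8.66, 8.71 and 8.60 in unloaded DBA/2 BMM. In AKR BMM it read 8.07, 8.10, 8.01 and 8.15 after loading, against 8.82, 8.70, 8.74 and 8.74 without it. Loaded and unloaded arrays did not overlap at this probe, while arrays of the 2 strains did. The log2 difference was -0.61 ± 0.07 in DBA/2 (adjusted p = 2.67e-07) and -0.67 ± 0.07 in AKR BMM (adjusted p = 1.36e-08). The dimmer probe, ILMN_2711172, lay close to the filter, with group means between 5.65 and 6.04. It was called lower in loaded AKR BMM (-0.39 ± 0.09, adjusted p = 0.000969) and not called in DBA/2 BMM (-0.05 ± 0.09, adjusted p = 0.753).

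The Iigp1 probes showed no level above the filter in any group of experiment 1. Probe ILMN_1229996 ranged over all 16 arrays from 5.14 to 5.52 and probe ILMN_2601786 from 5.53 to 5.97. With no filter, neither was called in any comparison, with loading differences between -0.02 and 0.11. The plot of experiment 1 by array shows the 4 tested genes parting by loading and the Iigp1 probe flat.

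**Figure D1:**
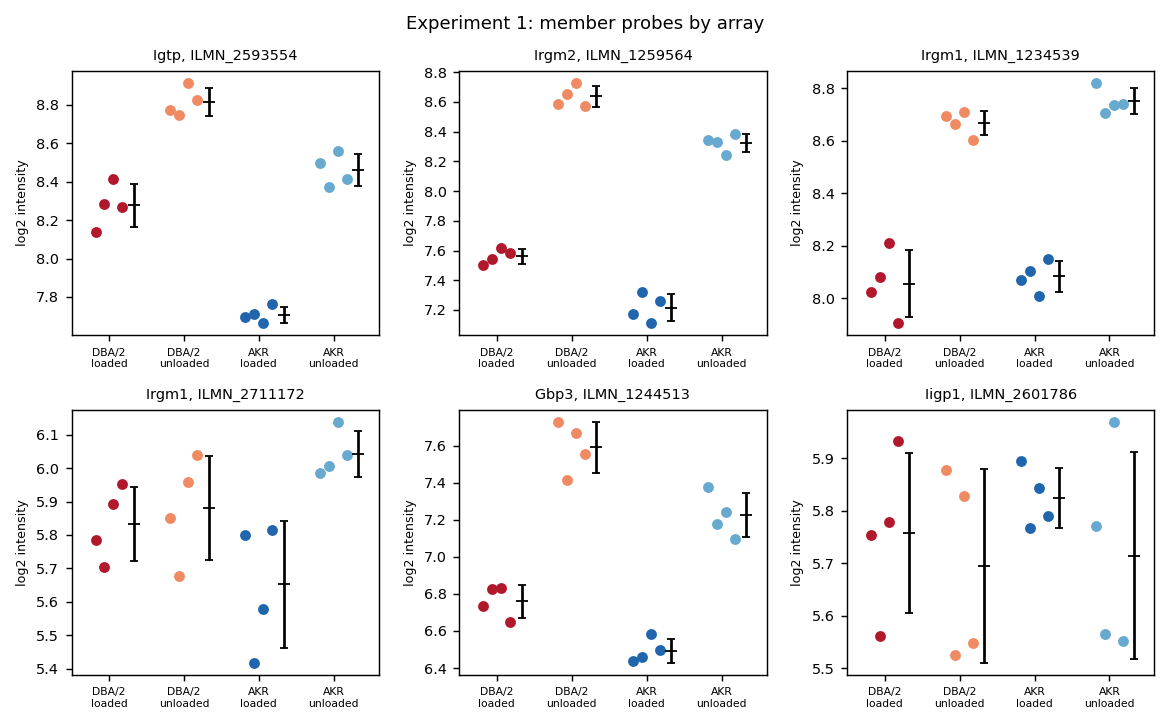
Log2 intensity (y axis, scaled to each panel) of member probes in the 4 groups of experiment 1, DBA/2 loaded, DBA/2 unloaded, AKR loaded and AKR unloaded; points are arrays in order of replicate number, and bars are the mean ± SD of 4 arrays. Loaded arrays lie below unloaded arrays of the same strain for Igtp, Irgm2, Gbp3 and Irgm1 probe ILMN_1234539, while Iigp1 probe ILMN_2601786 stays between 5.53 and 5.97.

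In experiment 2 the loading differences of the DBA/2 BMM were larger on the log2 scale, although the 2 tables differ in array and normalization and the sizes were not tested against each other. By the labels, 4 of the 5 tested genes were called lower in loaded DBA/2 BMM, where 3.74% of 9356 genes were called lower and 4.56% higher. The median of the 5 was -2.50, beside 0.03 over all genes. The gene not called was Irgm1, read from its brightest probe.

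Gbp3 fell the most. Probe ILMN_1244513 read 5.44, 5.50, 5.36 and 5.39 in loaded DBA/2 BMM, against 8.07, 8.39, 8.0 and 7.94 in unloaded DBA/2 BMM. The second probe, ILMN_2918002, read 5.16, 5.36, 5.24 and 5.15 in loaded DBA/2 BMM, against 7.88, 8.62, 8.11 and 8.24 in unloaded DBA/2 BMM. Both probes put the loaded arrays more than 2 log2 units below the unloaded arrays. The log2 difference was -2.68 ± 0.43 (6.39-fold lower, adjusted p = 0.000484) for the first and -2.98 ± 0.46 (7.91-fold lower, adjusted p = 0.000349) for the second.

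Irgm2 read 6.93, 7.29, 7.10 and 7.12 in loaded DBA/2 BMM, against 9.62, 10.04, 9.76 and 9.67 in unloaded DBA/2 BMM, a log2 difference of -2.66 ± 0.48 (6.33-fold lower, adjusted p = 0.00133). Gbp2, a guanylate-binding protein recruited to the vacuoles of pathogens, read 7.11, 7.10, 6.96 and 7.16 in loaded DBA/2 BMM, against 9.38, 9.84, 9.57 and 9.54 in unloaded DBA/2 BMM. Its log2 difference was -2.50 ± 0.39 (5.66-fold lower, adjusted p = 0.000443). Igtp read 7.04, 7.31, 7.33 and 7.19 in loaded DBA/2 BMM, against 9.58, 9.62, 9.53 and 9.34 in unloaded DBA/2 BMM, a log2 difference of -2.30 ± 0.43 (4.93-fold lower, adjusted p = 0.00152). In these 3 genes each loaded array lay at least 2 log2 units below each unloaded one. How many of all genes do so was not counted.

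The AKR arrays of experiment 2 split the same members against their labels. Igtp read 6.27, 8.28, 6.26 and 6.16 in AKR loaded replicates 1 to 4, against 6.46, 8.29, 8.46 and 8.22 in AKR unloaded replicates 1 to 4. Irgm2 read 6.83, 8.90, 6.47 and 6.64 in the loaded arrays, against 6.75, 8.85, 9.03 and 8.93 in the unloaded arrays. Gbp2 read 7.29, 9.06, 7.17 and 7.12 in the loaded arrays, against 7.32, 9.06, 9.03 and 9.08 in the unloaded arrays. In all 3 genes loaded replicate 2 sat among the unloaded arrays and unloaded replicate 1 sat close to the loaded arrays, the same arrays that correlated with the other AKR group over all kept probes. Gbp3 probe ILMN_1244513 repeated this, with 5.42, 7.32, 5.26 and 5.24 in the loaded arrays, against 5.45, 7.14, 7.57 and 7.32 in the unloaded arrays.

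By the labels no member was called in loaded AKR BMM of experiment 2, with log2 differences of -0.97 to -1.18 for the brightest probes of Igtp, Irgm2, Gbp2 and Gbp3 (adjusted p = 0.36 each). No gene of the whole table was called in that comparison in limma either (0% of 9356 genes higher and 0% lower), although 1877 of 13732 probes and 4 of the 5 members had an unadjusted p under 0.05. Without the 2 arrays, 4 of the 5 tested genes were called lower in AKR BMM, where 9.63% of 9472 genes were called lower and 10.1% higher. The log2 differences were -2.29 ± 0.13 for Irgm2 (4.9-fold lower, adjusted p = 6.06e-09), -2.09 ± 0.11 for Igtp (4.27-fold lower, adjusted p = 2.83e-09), -2.04 ± 0.13 for Gbp3 (4.11-fold lower, adjusted p = 1.19e-08) and -1.87 ± 0.11 for Gbp2 (3.65-fold lower, adjusted p = 8.05e-09). Their places from the lowest difference were 17, 29, 32 and 51 of 9472 genes. In DBA/2 BMM, from which no array was left out, the differences stayed as above and the same 4 genes were called, where 8.64% of genes were called lower and 10.3% higher.

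**Figure D2:**
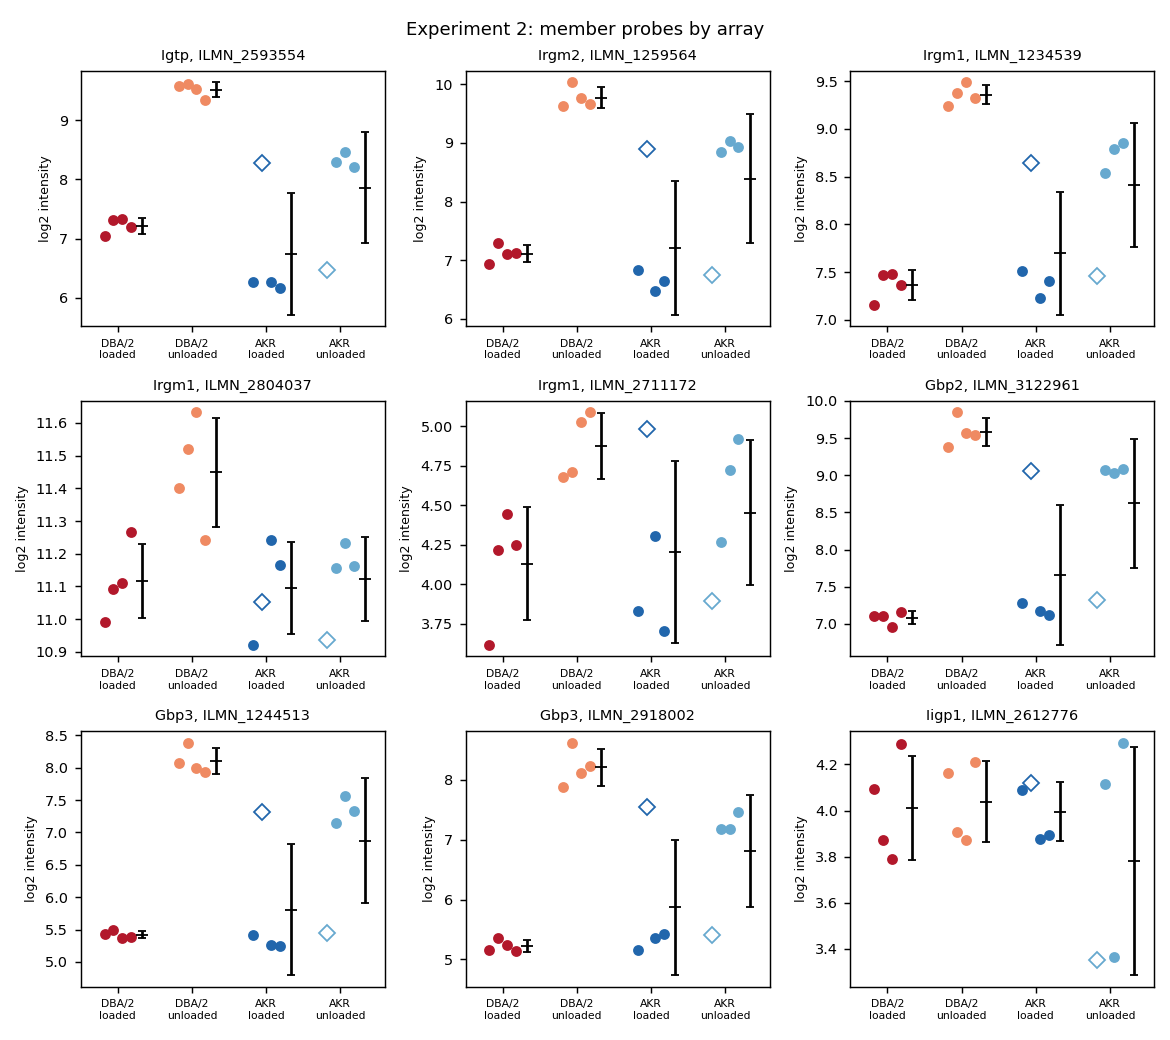
Log2 intensity (y axis, scaled to each panel) of member probes in the 4 groups of experiment 2; points are arrays in order of replicate number, open diamonds mark AKR loaded replicate 2 and AKR unloaded replicate 1, and bars are the mean ± SD of all 4 arrays. Loaded DBA/2 arrays lie far below unloaded DBA/2 arrays for Igtp, Irgm2, Gbp2 and Gbp3, and the open diamonds lie with the AKR group they were not labelled for.

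The 3 Irgm1 probes of experiment 2 disagreed. Probe ILMN_1234539, the bright probe of experiment 1, read 7.15, 7.47, 7.48 and 7.36 in loaded DBA/2 BMM, against 9.24, 9.37, 9.49 and 9.33 in unloaded DBA/2 BMM. Its log2 difference was -1.99 ± 0.29 (3.97-fold lower, adjusted p = 0.000207), close to that of Igtp. Probe ILMN_2804037, which was not on the array of experiment 1, was far brighter, with 10.99, 11.09, 11.11 and 11.27 in loaded DBA/2 BMM, against 11.40, 11.52, 11.63 and 11.24 in unloaded DBA/2 BMM. These groups overlapped by 1 array, and the difference of -0.33 ± 0.11 was not called (adjusted p = 0.0421). The dim probe ILMN_2711172 differed by -0.75 ± 0.26 and was not called by the labels (adjusted p = 0.0618), but it was called without the 2 AKR arrays (-0.75 ± 0.19, adjusted p = 0.00658). In AKR BMM without the 2 arrays the differences were -1.34 ± 0.12 (adjusted p = 4.85e-07), -0.07 ± 0.12 (adjusted p = 0.695) and -0.69 ± 0.21 (adjusted p = 0.0239) for the 3 probes in the same order. The platform tables name all 3 for the same gene, and which transcripts each one reads was not tested. Read by probe ILMN_1234539, which is on both arrays, Irgm1 would raise the count to 5 of 5 in DBA/2 BMM.

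Iigp1 stayed at the bottom of the table in experiment 2 too. Its 2 probes ranged from 3.27 to 4.29 over the 16 arrays, and with no filter neither was called in any comparison. The Gbp2 probes ILMN_2605602 and ILMN_3047389 were as dim, with group means of 3.72 to 4.03, and were not called either. The Gbp2 results therefore rest on 1 probe.

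**Figure D3:**
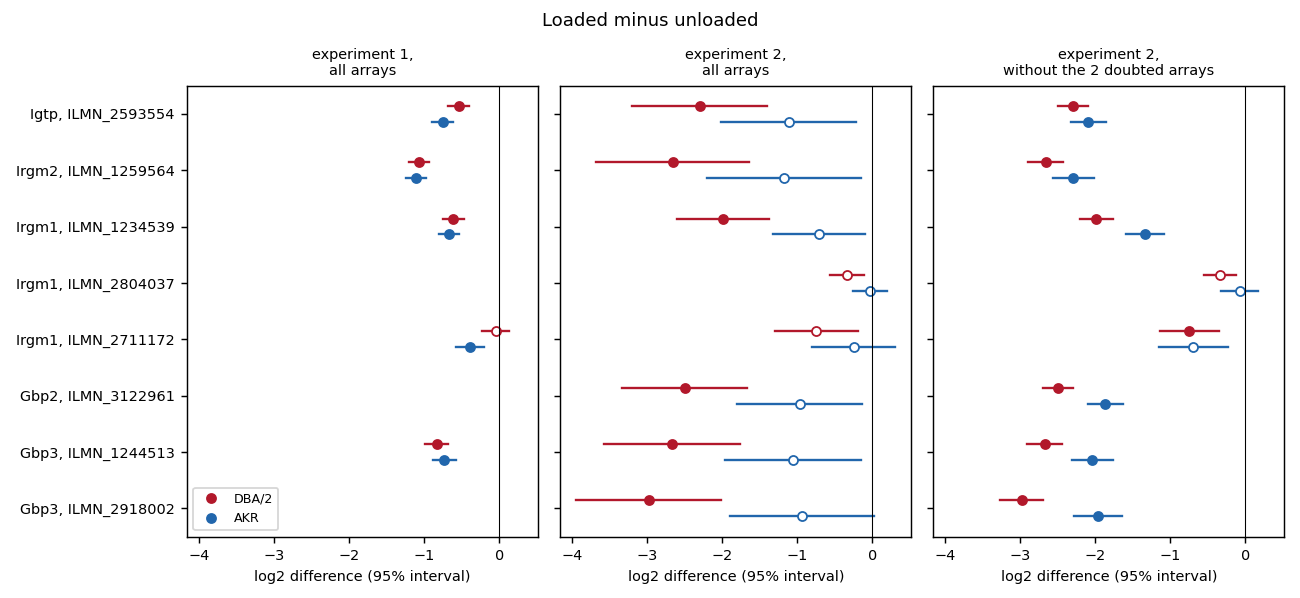
Loaded minus unloaded log2 difference (x axis) of each tested member probe in DBA/2 (red) and AKR BMM (blue), with 95% intervals from limma; filled points are called at an adjusted p under 0.01 and open points are not. Points of experiment 1 lie between -1.11 and -0.05, those of DBA/2 BMM in experiment 2 reach -2.98, and the AKR intervals of experiment 2 narrow once the 2 arrays are left out.

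Unloaded DBA/2 BMM had more mRNA of most tested members than unloaded AKR BMM. In experiment 1, 3 of the 4 tested genes were called higher in DBA/2, where 14.3% of genes were called higher and 13.9% lower. The log2 difference was 0.36 ± 0.07 for Igtp (1.28-fold, adjusted p = 0.000174), 0.37 ± 0.08 for Gbp3 (1.29-fold, adjusted p = 0.000393) and 0.31 ± 0.06 for Irgm2 (1.24-fold, adjusted p = 0.000408). For each of the 3, all 4 unloaded DBA/2 arrays lay above all 4 unloaded AKR arrays in the values given above. The share of all genes that part in this way, by strain or by loading, was not counted. Irgm1 was not called (-0.08 ± 0.07, 95% interval -0.22 to 0.05, adjusted p = 0.34).

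In loaded BMM of experiment 1 the same 3 genes were called higher in DBA/2, where 15.1% of genes were called higher and 14.6% lower. Igtp differed by 0.57 ± 0.07 (1.48-fold, adjusted p = 2.12e-07), Irgm2 by 0.35 ± 0.06 (1.27-fold, adjusted p = 0.000112) and Gbp3 by 0.27 ± 0.08 (1.2-fold, adjusted p = 0.00663). The Gbp3 call is weak: it was lost with no filter on dim probes (adjusted p = 0.0152), with an offset on the linear scale (adjusted p = 0.014) and without any of 6 single arrays, namely loaded DBA/2 replicates 1, 2 and 3 and loaded AKR replicates 1, 2 and 4 (0.24 to 0.27). Irgm1 was not called (-0.03 ± 0.07, adjusted p = 0.784).

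In experiment 2 by the labels, no member was called in the strain comparison of unloaded BMM, where 4.96% of genes were called higher and 5.69% lower in DBA/2. All 5 tested genes had an unadjusted p under 0.05 and a positive difference, from 0.33 for Irgm1 to 1.66 for Igtp (adjusted p = 0.0116). Without the 2 arrays, Igtp, Irgm2, Gbp3 and Gbp2 were called higher in DBA/2, where 7% of genes were called higher and 8.02% lower. Igtp differed by 1.20 ± 0.10 (2.29-fold, adjusted p = 2.73e-07), with 9.34 to 9.62 in the 4 DBA/2 arrays, against 8.22 to 8.46 in the 3 AKR arrays. Irgm2 differed by 0.84 ± 0.12 (1.78-fold, adjusted p = 7.92e-05), Gbp3 by 0.75 ± 0.12 (1.69-fold, adjusted p = 0.000187) and Gbp2 by 0.52 ± 0.10 (1.44-fold, adjusted p = 0.00146). Leaving out AKR loaded replicate 2 alone gave 3 calls.

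After loading in experiment 2, 2 of these strain differences were called without the 2 arrays. By the labels no member was called and the median was -0.10, where 6.79% of genes were called higher and 6.04% lower. Without the arrays, Igtp remained higher in DBA/2 by 0.99 ± 0.10 (1.98-fold, adjusted p = 1.78e-06), with 7.04 to 7.33 in DBA/2, against 6.16 to 6.27 in AKR BMM. Irgm2 was higher by 0.46 ± 0.12 (1.38-fold, adjusted p = 0.00778). Gbp3 (0.12 ± 0.12, 95% interval -0.13 to 0.37) and Gbp2 (-0.11 ± 0.10, 95% interval -0.33 to 0.11) were not called. In that fit 10.3% of genes were called higher and 10.3% lower. A strain difference at a single probe can include a difference in how well the probe binds each strain's transcript, and this was not tested, since the authors removed polymorphic probes only after the deposited table.

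**Figure D4:**
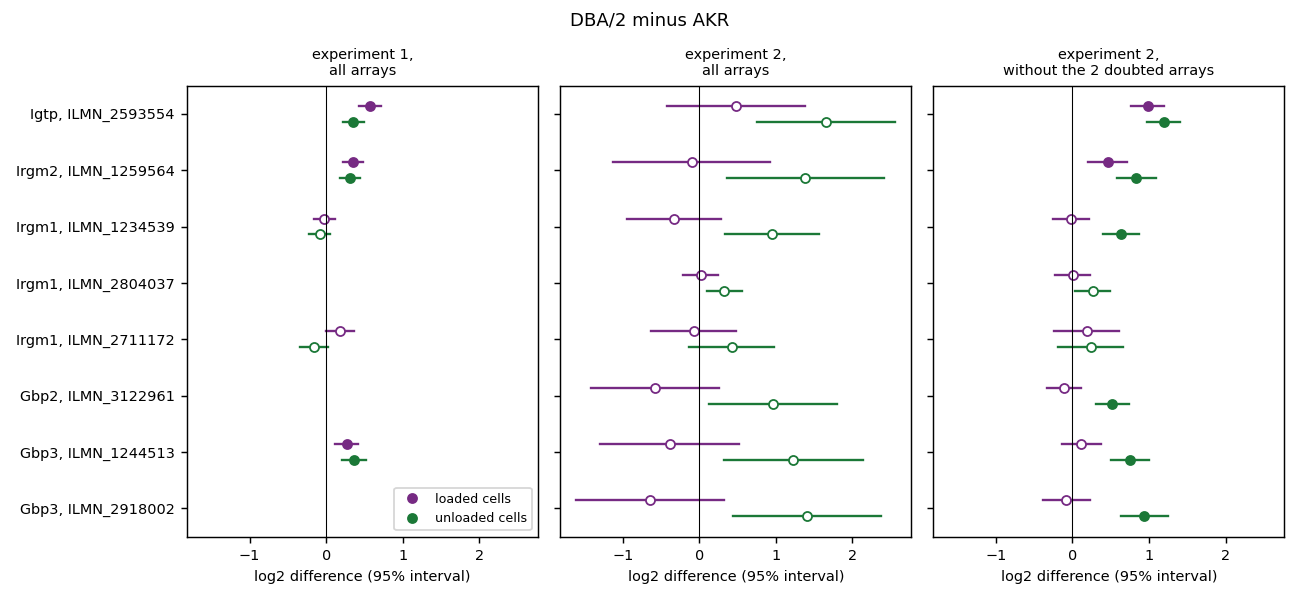
DBA/2 minus AKR log2 difference (x axis) of each tested member probe in loaded (purple) and unloaded BMM (green), with 95% intervals from limma; filled points are called at an adjusted p under 0.01 and open points are not. Igtp and Irgm2 are called higher in DBA/2 in both states of experiment 1 and of experiment 2 without the 2 arrays, while Irgm1 probe ILMN_1234539 is called in unloaded BMM of experiment 2 without the 2 arrays and in no other set of points.

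Whether the strains differed in their response was asked by the interaction, the DBA/2 loading difference minus that of AKR. In experiment 1 none of the 4 genes was called, where 7.61% of genes were called higher and 8.2% lower. The differences were 0.21 ± 0.10 for Igtp (95% interval 0.02 to 0.41, adjusted p = 0.109), 0.06 ± 0.09 for Irgm1, 0.03 ± 0.09 for Irgm2 (95% interval -0.15 to 0.22) and -0.10 ± 0.11 for Gbp3 (95% interval -0.32 to 0.12). Igtp was the only one of the 4 with an unadjusted p under 0.05.

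In experiment 2 no member was called by the labels, where 0.588% of genes were called higher and 0.406% lower, and 3 of the 5 had an unadjusted p under 0.05. Without the 2 arrays, 3.17% of genes were called higher and 2.59% lower, and again no member was called by its brightest probe. Gbp2 came close (-0.63 ± 0.15, adjusted p = 0.0107), and Gbp3 was at -0.64 ± 0.17 (adjusted p = 0.0225). Irgm1 was at -0.26 ± 0.15 by its brightest probe (adjusted p = 0.333) and at -0.65 ± 0.16 by probe ILMN_1234539 (adjusted p = 0.0147). The second Gbp3 probe was called, at -1.02 ± 0.20 (adjusted p = 0.00391), so that it fell further on loading in DBA/2 than in AKR BMM. Igtp (-0.21 ± 0.14, 95% interval -0.51 to 0.10) and Irgm2 (-0.37 ± 0.17, 95% interval -0.73 to -0.01) were not called.

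Over the 16 arrays of an experiment the tested member probes moved together, less closely for Irgm1 and least for its probes ILMN_2804037 and ILMN_2711172. As a description over arrays that share groups, Irgm2 and Gbp3 correlated at 0.961 in experiment 1 and, with Gbp3 read from ILMN_1244513, at 0.992 in experiment 2. Igtp and Irgm2 correlated at 0.926 in experiment 1 and 0.976 in experiment 2. Irgm1 probe ILMN_1234539 followed Irgm2 at 0.913 and 0.986, while its brightest probe of experiment 2, ILMN_2804037, followed Irgm2 at 0.671. Each gene was then set against the mean of the standardised member profiles, by the lower of its r values in the 2 experiments over 7173 genes, with all arrays and labels kept. The 10 genes most like the members were Ddx58 (0.976), Cmpk2 (0.976), Ifit2 (0.966), Il18 (0.966), Slfn2 (0.963), Fundc1 (0.963), Oas2 (0.953), Gbp7 (0.953), Samd9l (0.951) and Oasl2 (0.951).

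Ddx58 encodes RIG-I, the cytosolic sensor of viral RNA, and Oas2 makes the oligoadenylates that activate RNase L. Ddx58 was lower in loaded BMM of experiment 1 by 0.99 ± 0.08 in DBA/2 and by 1.03 ± 0.08 in AKR on the log2 scale. Oas2 was lower by 1.35 ± 0.07 in DBA/2 and by 1.01 ± 0.07 in AKR BMM. Ifit2, an antiviral protein induced by interferon, fell by 3.84 ± 0.13 in loaded DBA/2 BMM of experiment 2 without the 2 arrays and by 2.50 ± 0.15 in AKR BMM. The members' profile, by which these 10 genes were chosen, is largely the difference between loaded and unloaded arrays, so that their fall on the same arrays follows from the choice and was given no test.

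**Figure D5:**
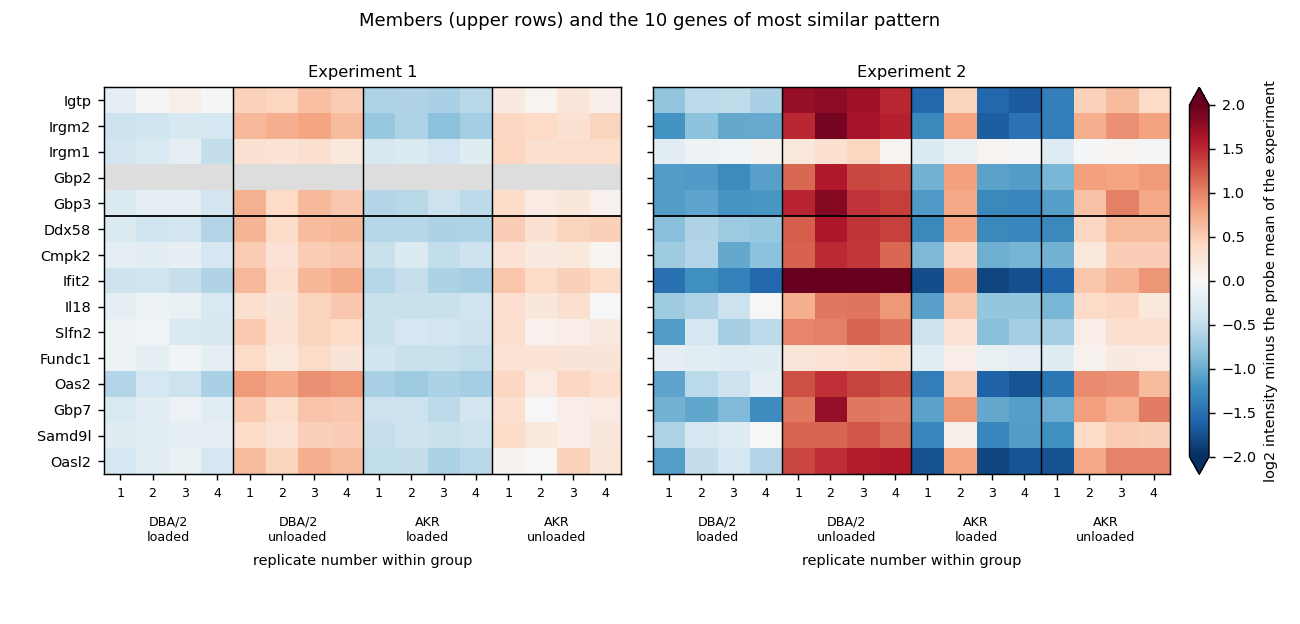
Log2 intensity minus the probe's mean over the experiment (colour, saturated beyond -2 and 2) for the members, each read from its brightest tested probe, and the 10 genes most like them, over the 16 arrays of each experiment in order of group and replicate. Gbp2 is grey in experiment 1, which had no probe named for it, AKR loaded replicate 2 and AKR unloaded replicate 1 of experiment 2 carry the colours of the other AKR group, and Irgm1 is pale in experiment 2, where its brightest probe changed little.

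The other IRG and GBP genes were read from a list of 20, of which 13 were on the array of experiment 1 and 5 passed the filter. On loading in DBA/2 BMM 3 of the 5 were called lower and none higher, with a median of -0.39: Gbp7 (-0.71 ± 0.07), Ifi47 (-0.64 ± 0.09) and Gbp5 (-0.39 ± 0.10). In AKR BMM 3 were called lower, with Gbp7 again the lowest (-0.60 ± 0.07), and 1 was higher, Irgq (0.48 ± 0.06), an IRG-like gene. Of all genes 6.4% were lower and 6.42% higher in DBA/2 BMM, and 15.1% and 16.2% in AKR BMM. In experiment 2 without the 2 arrays 10 passed the filter. There 7 were called lower on loading in DBA/2 BMM, led by Ifi47 (-2.32 ± 0.19), Gbp7 (-2.26 ± 0.15) and Gvin1 (-2.05 ± 0.10), and 4 in AKR BMM, led by Gbp7 (-1.92 ± 0.17), with none higher in either. Of all genes in that fit 8.64% were lower and 10.3% higher in DBA/2 BMM, and 9.63% and 10.1% in AKR BMM. By the labels no gene of this or the following lists was called on loading in AKR BMM, where none of 9356 genes was. For DBA/2 BMM of experiment 2 these lists are given only without the 2 arrays.

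Ifi47 (Irg47) had the largest strain difference of that list. It was higher in unloaded DBA/2 BMM by 1.95 ± 0.09 in experiment 1 and by 3.74 ± 0.20 in experiment 2 without the 2 arrays, and in loaded DBA/2 BMM by 1.71 ± 0.09 and 2.38 ± 0.20. These are log2 differences at 1 probe per array, and probe binding in each strain was not tested.

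Gamma interferon mRNA was not above the filter. The Ifng probes had group means of 5.61 to 5.70 in experiment 1 and 3.80 to 4.19 in experiment 2, below the filter in both. Of the 10 interferon ligands and inducers listed, 2 passed the filter in experiment 1 and 3 in experiment 2 without the 2 arrays. Il18, a cytokine that induces gamma interferon, was the 1 called on loading there, and it was lower in both strains (-0.57 ± 0.08 in DBA/2 and -0.65 ± 0.08 in AKR BMM of experiment 1). The summed linear intensity of the T and NK cell markers ranged from 453 to 500 in DBA/2 and from 450 to 489 in AKR BMM of experiment 1. In bulk cultures fewer cells of a type and less RNA per cell cannot be told apart.

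Among 18 genes of interferon receptors and JAK-STAT signalling, 14 passed the filter in experiment 1. On loading 6 were called lower and none higher in DBA/2 BMM, led by Socs3, the feedback inhibitor (-0.84 ± 0.08), and Irf7, the amplifier of type I interferon (-0.75 ± 0.08). In AKR BMM 7 were called lower, led by Irf7 (-1.23 ± 0.08), and 1 higher, Tyk2 (0.25 ± 0.07). Of all genes 6.4% were lower and 6.42% higher in DBA/2 BMM, and 15.1% and 16.2% in AKR BMM. In experiment 2 without the 2 arrays 8 of 14 were called lower on loading in DBA/2 BMM, led by Usp18, the protease that removes ISG15 (-2.96 ± 0.12), with Irf8 the 1 gene called higher (0.69 ± 0.12). There 9 of 14 were called lower in AKR BMM, led by Irf7 (-2.98 ± 0.23), and none higher. Of all genes in that fit 8.64% were lower and 10.3% higher in DBA/2 BMM, and 9.63% and 10.1% in AKR BMM. By the labels none of the list was called on loading in AKR BMM of experiment 2. The median of the list was -0.19 in DBA/2 and -0.22 in AKR BMM of experiment 1, and -0.49 and -0.66 in experiment 2, beside medians of all genes from 0.01 to 0.03.

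Gamma interferon targets of other kinds fell in part. Of 12 tested in experiment 1, 3 were called lower on loading in DBA/2 BMM, led by Ciita, the activator of class II genes (-0.78 ± 0.09), and none higher. In AKR BMM 5 were lower, again led by Ciita (-0.89 ± 0.09), and 3 higher, led by Cd274, which encodes the ligand PD-L1 (0.71 ± 0.07). Of all genes 6.4% were lower and 6.42% higher in DBA/2 BMM, and 15.1% and 16.2% in AKR BMM. Cd274 was called lower in loaded DBA/2 BMM (-0.39 ± 0.07), and its interaction was called at -1.10 ± 0.10. In experiment 2 without the 2 arrays 10 of 14 were lower in DBA/2 BMM, led by Fcgr1, the high-affinity IgG receptor (-1.72 ± 0.08), and 7 of 14 in AKR BMM, also led by Fcgr1 (-2.10 ± 0.09). Of all genes in that fit 8.64% were lower and 10.3% higher in DBA/2 BMM, and 9.63% and 10.1% in AKR BMM. The number of genes of this list called higher in experiment 2 is not given here. Cd274 had the same opposite signs there, at -0.96 ± 0.10 in DBA/2 and 0.81 ± 0.11 in AKR BMM.

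The proteins that place IRG and GBP proteins on membranes, the ATG8 family and its conjugation machinery with their ubiquitin ligases and adaptors, had calls in both directions. Of 12 genes tested in experiment 1, 1 was called lower on loading in DBA/2 BMM (Map1lc3a, -0.46 ± 0.08) and 1 higher (Atg7, 0.38 ± 0.07). There 6.4% of all genes were lower and 6.42% higher. In AKR BMM 1 was lower (Map1lc3b, -0.28 ± 0.08) and 4 were higher, led by the adaptor Sqstm1 (1.08 ± 0.07), where 15.1% of all genes were lower and 16.2% higher. In experiment 2 without the 2 arrays, 1 of 14 was called lower and 2 higher in DBA/2 BMM, where 8.64% of all genes were lower and 10.3% higher. In AKR BMM 2 were called lower and 3 higher, where 9.63% of all genes were lower and 10.1% higher. The ubiquitin ligase Trim21 had the largest fall, at -1.29 ± 0.08 in DBA/2 and -1.34 ± 0.09 in AKR BMM, and Sqstm1 was again higher in AKR BMM (1.62 ± 0.13). Trim21 was the 1 gene of this list with an ISRE core among the 11 that had a promoter.

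The inflammasome, which GBP proteins help to activate, was read from 8 genes. All 7 on the array of experiment 1 passed the filter, and 4 were called lower on loading in each strain and none higher, led by Il1b at -1.71 ± 0.11 in DBA/2 and -2.14 ± 0.11 in AKR BMM. Of all genes 6.4% were called lower and 6.42% higher in DBA/2 BMM, and 15.1% and 16.2% in AKR BMM. In experiment 2 without the 2 arrays 6 of 8 were called lower in DBA/2 BMM, led by Il1b (-2.55 ± 0.17) and Casp4, the sensor of cytosolic lipopolysaccharide (-2.43 ± 0.11). There 5 of 8 were lower in AKR BMM, led by Il18 (-1.21 ± 0.16) and Casp4 (-1.18 ± 0.12). Of all genes in that fit 8.64% were lower and 10.3% higher in DBA/2 BMM, and 9.63% and 10.1% in AKR BMM. The number of inflammasome genes called higher in experiment 2 is not given here. No promoter of the 7 found for this list held an ISRE core or a GAS core.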

How the data were processed

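Total RNA of 32 macrophage cultures was hybridised to Illumina MouseRef-8 arrays of 2 versions, 16 arrays an experiment. The authors quantile-normalised the arrays of each experiment and deposited log2 intensities, made with lumi 2.6.0 per the labels. The tables hold no scanner values or detection p-values, and the authors' later exclusion of probes (polymorphic or undetected) could not be redone. A single gene was named for 20984 probes in experiment 1 and 23978 in experiment 2, with symbols updated by RefSeq (GRCm38.p6).

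Strain, loading and their interaction were fitted to all 16 arrays of an experiment with limma 3.58.1 in R 4.3.3, with Benjamini-Hochberg adjustment over all kept probes (13339, 13732, and 13911 without the 2 arrays) and calls at 0.01. A gene was read from its brightest kept probe. Errors of differences are SE from the fit, and 4 arrays a group limit the precision. The fit was tested on simulated data, and repeated with other filters, an offset of 50, recentred arrays, a replicate block, the compared groups alone, trended robust eBayes and single arrays left out. Named genes were all members, the called gene of each list with the largest rise and fall, genes needed to explain a count, and the 10 most alike. Members and lists were chosen with earlier results of these data known. Python 3.11.15 and matplotlib 3.10.9 drew the figures.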

Additional observations from a re-analysis of the deposited data

Results flagged for a closer look

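Of 76 sets of 4 arrays (a member probe in a group), 9 had an array far from the other 3 by Dixon's test at the 95% level, where chance gives about 1 in 20. All 9 were the 2 AKR arrays of experiment 2 described above. AKR loaded replicate 2 stood high: Igtp at 8.28 (others 6.16 to 6.27), Irgm2 at 8.90 (others 6.47 to 6.83), Gbp2 at 9.06 (others 7.12 to 7.29), Gbp3 probe ILMN_1244513 at 7.32 (others 5.24 to 5.42) and Gbp3 probe ILMN_2918002 at 7.55 (others 5.16 to 5.42). AKR unloaded replicate 1 stood low: Igtp at 6.46 (others 8.22 to 8.46), Irgm2 at 6.75 (others 8.85 to 9.03), Gbp2 at 7.32 (others 9.03 to 9.08) and Gbp3 probe ILMN_2918002 at 5.41 (others 7.17 to 7.47).

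The strains differed in their loading response at Gbp3 probe ILMN_2918002 of experiment 2 without those arrays, by an interaction of -1.02 ± 0.20 (limma, adjusted p = 0.00391), with -2.98 in DBA/2 and -1.97 in AKR BMM. By the labels the interaction of this probe was -2.05 ± 0.65 and was not called (adjusted p = 0.119).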

How the results depend on the processing

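In experiment 1 the count of members called stayed within 1.5 times its value under every alternative run, and leaving out each array in turn gave 3 for unloaded strains, 2 to 3 for loaded strains, 4 for loading in either strain and 0 for the interaction. In experiment 2 by the labels, leaving out each array gave 0 to 3 for unloaded strains, 4 for loading in DBA/2 BMM, and 0 for loaded strains, loading in AKR BMM and the interaction. Leaving out both arrays that correlated with the other AKR group (the doubted pair), added after seeing the data, gave 4 for unloaded strains, 2 for loaded strains, 4 for loading in AKR BMM, 4 for loading in DBA/2 BMM and 0 for the interaction. The offset of 50 gave 1 for unloaded strains, and so did the replicate block (1, Igtp). Replicate numbers were not taken to pair the arrays in the main fit. In experiment 1 the deviations of same-numbered arrays correlated from 0.01 to 0.16 (median 0.08), with 9 of 24 pairs over 0.1. Other pairs had a median of -0.04, with 2 of 72 over 0.1. In experiment 2 same-numbered arrays ranged from -0.30 to 0.52 (median 0.10), with 12 of 24 over 0.1. Other pairs had a median of -0.03, with 5 of 72 over 0.1. The paper put 2 arrays of each group on a chip but did not say which. The block changed no other count of members.

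Differences near 0 changed sign in single fits. In experiment 1 the Irgm2 interaction was -0.0073 with the offset and ranged from -0.00058 to 0.069 over single arrays left out. On the same terms the strain difference in loaded BMM of Irgm1 probe ILMN_1234539 ranged from -0.080 to 0.023, and the loading difference in DBA/2 BMM of probe ILMN_2711172 from -0.12 to 0.0050. In experiment 2, over arrays left out, the doubted pair included, the strain difference in loaded BMM ranged from -0.58 to 0.12 for Gbp3, from -0.35 to 0.46 for Irgm2, from -0.24 to 0.19 for Irgm1 probe ILMN_2711172 and from -0.038 to 0.069 for probe ILMN_2804037. The positive ends for Gbp3 and Irgm2 are those without AKR loaded replicate 2. The loading difference in AKR BMM of probe ILMN_2804037 ranged from -0.088 to 0.032. Over the whole table of experiment 2, probes called on loading in DBA/2 BMM numbered 1077 by the labels, 694 with no filter, 2073 from the 2 groups alone, 633 to 1620 with single arrays left out and 2494 without the doubted pair. The interaction gave 112 by the labels, 64 with no filter, 191 with the offset and 711 without the pair, loaded strains gave 1659 by the labels and 2669 without the pair, and loading in AKR BMM gave 0 by the labels and 2557 without the pair.

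The stricter filter left the dim Irgm1 probe untested. Log2 intensities near the filter limit what can be said of Iigp1.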
